A study of Mus musculus with 8 samples.

Results

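BMP and activin signalling in brown adipose tissue (BAT) was followed through 10 genes taken by name from the 31053 genes of the count table. They encode 5 ligands or ligand subunits (Bmp4, Bmp8b, Gdf10, Inhba and Inhbb), 4 receptors (Bmpr1a, Acvr1c, Bmpr2 and Acvr2a) and the secreted antagonist follistatin (Fst). Of these 10 genes, 7 held enough reads to be tested, and 3 differed between genotypes. Inhbb and Bmp4 were higher and Fst was lower in db/db mice, of which Bmp4 was not called once a skeletal muscle score entered the fit. The 4 receptors were tested and did not pass. Inhba, Bmp8b and Gdf10 fell below the filter on low counts.

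BMPs, activins and growth and differentiation factors (GDFs) are secreted dimers of the TGF-beta superfamily. They bring together a type II and a type I receptor, which phosphorylate SMAD proteins. BMP receptors act mostly through SMAD1, SMAD5 and SMAD9, activin receptors through SMAD2 and SMAD3, and both routes use SMAD4. In adipose tissue, BMPs are known for driving commitment of precursors and for tuning brown fat heat production, and activins for restraining adipocyte differentiation. Follistatin binds activins, and more weakly some BMPs, and keeps them from their receptors.

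The BAT of 4 WT and 4 db/db mice was profiled by bulk RNA-seq to describe what obesity with leptin receptor deficiency changes in this depot. All mice were labelled as 8 weeks old and of strain C57BL6/J. The study's methods describe males on a normal diet that were fasted before tissue harvest, with db/db animals named as strain B6.BKS(D)-Leprdb/J. The db/db animals lack the long leptin receptor in every tissue. The methods name different suppliers for WT and db/db mice, while the study's list of materials names the same one for both and gives the db/db mice a stock number that does not match the strain named in the methods. Any effect of supplier or of genetic background therefore cannot be told apart from genotype. The number of mice given for this experiment equals the number of libraries in each genotype, and replicates were taken as separate animals.

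The WT libraries held 2374079 to 2615009 counts each, the db/db libraries 2382722 to 3240074. Levels are given as CPM, counts scaled to a common library size. The smallest level taken as detectable, 3 counts, was 1.13 to 1.27 CPM for WT and 0.902 to 1.33 CPM for db/db. Lepr, the mutated gene, had 0 counts in all 8 libraries and could not check the labels. The labels give the cell type as stromal vascular fraction, yet the 6 adipocyte markers summed to 8861 to 15741 CPM in WT and to 14523 to 19502 CPM in db/db, so the libraries held abundant adipocyte RNA and are called BAT here. In bulk tissue, fewer cells of a type and less RNA per cell cannot be told apart.

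The promoters of Inhbb, Bmp4 and Gdf10 are shown because these are the 3 ligand genes among the 10 whose libraries did not overlap between genotypes. Each is the 250 bases before the RefSeq start site (build GRCm38.p6), read 5′ to 3′ on the strand of the gene. Capitals mark the SMAD box AGAC on either strand, which reads GTCT on the opposite strand, and in Gdf10 also the longer CAGAC, which contains it. The Inhbb window lies at chr1:119422249-119422498 (minus strand), the Bmp4 window at chr14:46390670-46390919 (minus strand) and the Gdf10 window at chr14:33923337-33923586 (plus strand).
Inhbb: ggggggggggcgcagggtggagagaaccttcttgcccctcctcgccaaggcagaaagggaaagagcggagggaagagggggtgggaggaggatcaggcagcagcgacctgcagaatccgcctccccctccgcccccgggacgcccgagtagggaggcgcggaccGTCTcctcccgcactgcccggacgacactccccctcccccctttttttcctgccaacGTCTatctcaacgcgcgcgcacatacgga
Bmp4: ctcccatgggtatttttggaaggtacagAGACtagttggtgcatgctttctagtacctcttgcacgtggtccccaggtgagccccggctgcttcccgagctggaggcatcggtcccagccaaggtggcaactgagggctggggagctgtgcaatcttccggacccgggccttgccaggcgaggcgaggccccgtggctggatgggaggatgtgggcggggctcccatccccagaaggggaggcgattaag
Gdf10: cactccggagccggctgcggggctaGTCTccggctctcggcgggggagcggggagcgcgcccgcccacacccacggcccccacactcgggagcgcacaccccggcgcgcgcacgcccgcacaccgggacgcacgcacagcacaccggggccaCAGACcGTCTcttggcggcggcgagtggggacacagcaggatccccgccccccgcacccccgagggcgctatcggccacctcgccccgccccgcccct

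AGAC occurred 2 times in the Inhbb window, 1 time in that of Bmp4 and 3 times in that of Gdf10. RefSeq promoters were matched for 9 of the 10 genes, with 10 windows in all. AGAC was in 7 of these 10 windows and in 82.9% of all 32851 mouse promoter windows of this length. CAGAC was in 3 of the 10 and in 42.2% of all. The GC-rich SMAD element GGCGCC was in 2 of the 10, those of Bmpr1a and Bmpr2, and in 9.59% of all. A match is a description of letters and not of binding.

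Among the ligands, Inhbb showed the largest fold change of the 7 tested genes. It encodes the beta B subunit, which pairs with itself to form activin B (ENSMUSG00000037035, mm10 chromosome 1, 119415465 to 119422248, minus strand). WT libraries 1 to 4 held 4, 0, 2 and 5 Inhbb counts, and db/db libraries 1 to 4 held 33, 32, 21 and 24. In CPM these were 1.62, 0, 0.752 and 2.12 in WT against 9.93, 10.2, 9.31 and 8.93 in db/db. WT values thus lay around the detection limit, while the db/db values lay close together, with no overlap. The means were 1.12 ± 0.939 and 9.59 ± 0.572 CPM (SD, n = 4 each). The difference was 3.05 on the log2 scale (SE 0.50, 95% interval 2.01 to 4.09), a fold of 8.29, with an edgeR adjusted p of 0.000175.

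Bmp4, a BMP known for committing mesenchymal precursors to the adipocyte lineage, was the second ligand to rise (ENSMUSG00000021835, mm10 chromosome 14, 46383520 to 46390669, minus strand). Its counts were 8, 17, 19 and 8 in WT and 119, 68, 58 and 44 in db/db. The corresponding levels were 3.24, 7.17, 7.14 and 3.40 CPM in WT, and 35.8, 21.6, 25.7 and 16.4 CPM in db/db. The lowest db/db library exceeded the highest WT library, and db/db replicate 1 stood highest. The means were 5.24 ± 2.22 and 24.9 ± 8.22 CPM (SD, n = 4 each). Bmp4 was 4.71-fold higher in db/db, a log2 difference of 2.24 (SE 0.32, 95% interval 1.56 to 2.91; edgeR adjusted p = 5.57e-05). With the skeletal muscle score of each library as a covariate, described with the cell type markers, its log2 difference was 1.35 and the call was lost (edgeR adjusted p = 0.129). An antisense gene overlaps its exons, and that gene had 0 counts in every library.

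Gdf10, also known as BMP3B, is a ligand related to Bmp3 (ENSMUSG00000021943, mm10 chromosome 14, 33923587 to 33937983, plus strand). It had 4, 7, 6 and 5 counts in WT and 23, 11, 12 and 18 in db/db. The levels were 1.62, 2.95, 2.25 and 2.12 CPM in WT against 6.92, 3.50, 5.32 and 6.70 CPM in db/db, again with no overlap. The means were 2.24 ± 0.551 and 5.61 ± 1.57 CPM (SD, n = 4 each). Gdf10 was below the filter and outside the test across genes. Its mean log2 CPM was higher by 1.07 in db/db (exact two-sided permutation test, p = 0.0286, the smallest that 4 against 4 samples allow). When every gene with at least 1 count was tested, its log2 fold change was 1.26 with an edgeR adjusted p of 0.0758.

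The other ligand genes were scarce. Inhba, the beta A subunit of activin A, had 3, 0, 3 and 0 counts in WT and 5, 1, 1 and 2 in db/db (ENSMUSG00000041324, mm10 chromosome 13, 16011851 to 16031621, plus strand). These values overlapped, and the difference in mean log2 CPM was 0.26 (exact two-sided permutation test, p = 0.543). At this depth no Inhba difference was detectable. Bmp8b, a BMP made by brown adipocytes that enhances their response to cold, had 0 counts in all 8 libraries (ENSMUSG00000002384, mm10 chromosome 4, 123105165 to 123132099, plus strand), which allows up to 0.902 to 1.33 CPM by library. Bmp8b has a near-identical copy, Bmp8a, with 0 to 3 counts per library, and shares exon bases with Ppie, so its level is uncertain.

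**Figure D1:**
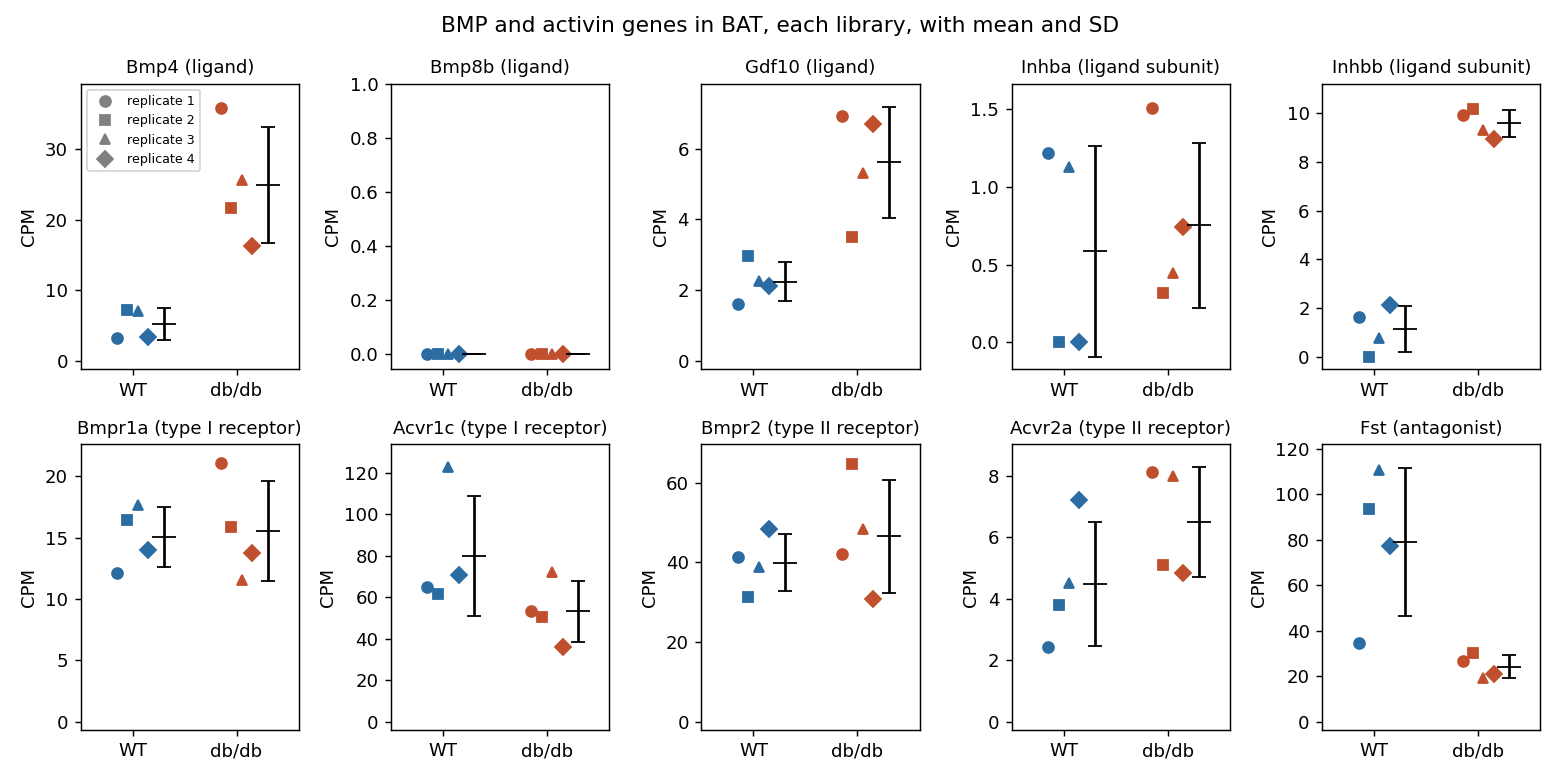
Level of each of the 10 genes in CPM (vertical axes, a separate scale in each panel) in the 4 WT and 4 db/db libraries, with symbols for replicate numbers and a bar for the mean and SD. Bmp4, Gdf10 and Inhbb were higher in every db/db library than in any WT library, Fst was lower, Bmp8b was at 0 throughout, and the other 5 genes overlapped.

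The receptors were more even. Bmpr1a, the type I receptor for BMP2 and BMP4, had 12.1, 16.5, 17.7 and 14.0 CPM in WT and 21.1, 15.9, 11.5 and 13.8 CPM in db/db (ENSMUSG00000021796, mm10 chromosome 14, 34410734 to 34503341, minus strand). The db/db libraries lay on both sides of the WT libraries. The means were 15.1 ± 2.47 and 15.6 ± 4.08 CPM (SD, n = 4 each), and the log2 difference of 0.06 had a 95% interval of -0.45 to 0.57 (edgeR adjusted p = 0.888).

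Bmpr2, the main type II receptor for BMPs, had 41.3, 31.2, 38.7 and 48.4 CPM in WT and 42.1, 64.6, 48.3 and 30.9 CPM in db/db (ENSMUSG00000067336, mm10 chromosome 1, 59763400 to 59879014, plus strand). Both the highest and the lowest value belonged to db/db libraries. Its log2 difference was 0.22 (SE 0.21, 95% interval -0.22 to 0.66; edgeR adjusted p = 0.466).

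Acvr2a, a type II receptor shared by activins and several BMPs, was at 2.43, 3.80, 4.51 and 7.22 CPM in WT and at 8.12, 5.09, 7.98 and 4.84 CPM in db/db (ENSMUSG00000052155, mm10 chromosome 2, 48814109 to 48903269, plus strand). The genotypes overlapped, and the log2 difference was 0.53 (SE 0.39, 95% interval -0.29 to 1.36; edgeR adjusted p = 0.341). Orc4 overlaps it on the opposite strand and had 17 to 40 counts per library, so that its counts of 6 to 27 are uncertain.

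Acvr1c encodes ALK7, a type I receptor for activin B and GDF3 that is known for limiting fat breakdown in adipocytes (ENSMUSG00000026834, mm10 chromosome 2, 58267453 to 58357895, minus strand). It was at 64.7, 61.6, 122.9 and 70.5 CPM in WT and at 53.5, 50.6, 72.3 and 36.1 CPM in db/db. Most db/db libraries lay lower, but db/db replicate 3 reached the WT range, and WT replicate 3 stood far above the other libraries. The means were 79.9 ± 28.9 and 53.1 ± 14.9 CPM (SD, n = 4 each). The log2 difference was -0.60 (SE 0.23, 95% interval -1.07 to -0.12), with an edgeR adjusted p of 0.0578. It passed 0.05 under 6 of 19 alternative settings, with adjusted p between 0.00158 and 0.307 over all of them. Without WT replicate 3 the log2 difference was -0.33 (edgeR adjusted p = 0.243).

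Fst was the 1 gene of the 10 called lower (ENSMUSG00000021765, mm10 chromosome 13, 114452290 to 114458951, minus strand). Its counts were 86, 222, 294 and 182 in WT and 89, 95, 43 and 56 in db/db. The levels were 34.8, 93.7, 110.5 and 77.3 CPM in WT and 26.8, 30.2, 19.1 and 20.8 CPM in db/db. WT replicate 1 lay well below the other WT libraries and still above all db/db libraries. The means were 79.1 ± 32.5 and 24.2 ± 5.19 CPM (SD, n = 4 each). Fst was 3.24-fold higher in WT, a log2 difference of -1.69 (SE 0.27, 95% interval -2.26 to -1.13; edgeR adjusted p = 0.000143). Gm47040, on the opposite strand, shares exon bases with Fst and had 24 to 35 counts in WT and 14 to 21 in db/db. Whether counting used strand is not stated, so reads of the pair could not be separated.

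The 3 called genes made 42.9% of the 7 tested, against 27.7% of the 9264 genes tested in all. By direction, 2 of 7 were higher, with 15.8% of all tested genes called higher, and 1 of 7 was lower, with 11.9% of all called lower. CPM values did not overlap for 3 of the 7 tested, against 28.1% of all tested genes, and for Gdf10 outside the test. The median log2 fold change of the 7 was 0.22, and that of all genes tested was 0.0066. With so few genes these shares are descriptions.

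**Figure D2:**
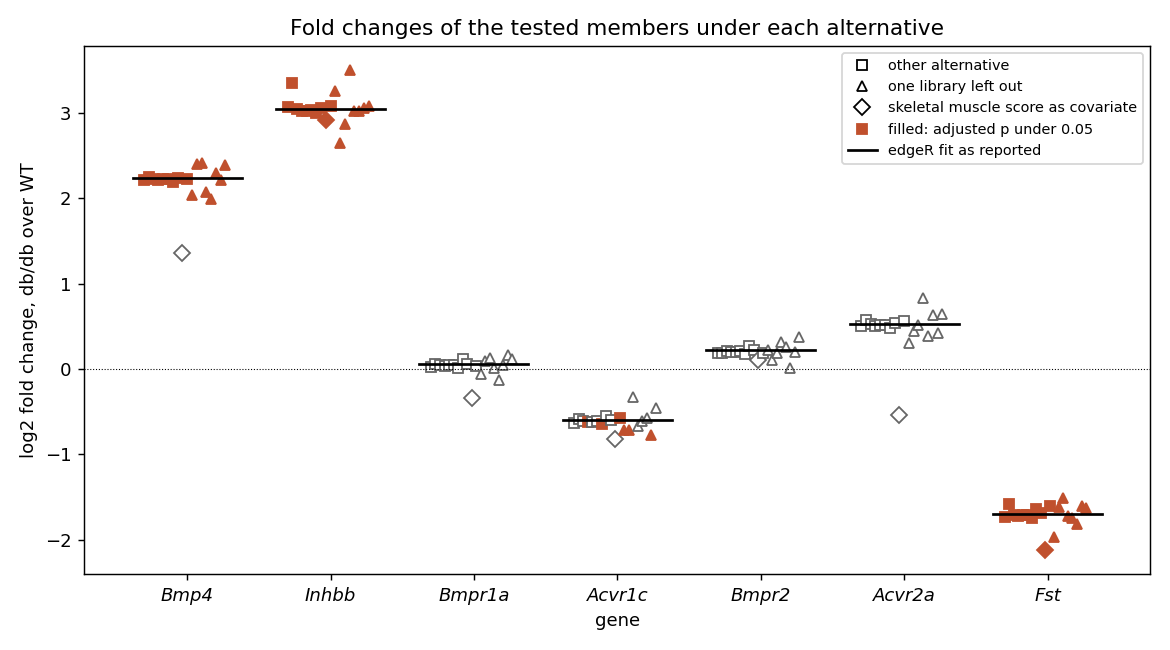
Log2 fold change (db/db over WT, vertical axis) of the 7 tested genes as reported (line) and under each alternative: other tools, scalings and filters (squares), 1 library left out (triangles) and a skeletal muscle score as covariate (diamonds), filled where the adjusted p was under 0.05. Inhbb and Fst stayed filled under every alternative shown, and Bmp4 fell to 1.35 and lost the call with the muscle covariate.

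Marker RNA of several cell types differed between genotypes along with these genes. All 10 skeletal muscle markers were called higher in db/db, and their sum was 397.4 to 1399 CPM in WT libraries against 2001 to 9924 CPM in db/db libraries. Macrophage markers were higher for 7 of 8, with sums of 146.4 to 194.2 CPM in WT and 668.4 to 1205 CPM in db/db. Fibroblast and preadipocyte markers were also higher for 7 of 8, with sums of 508.1 to 641.4 against 1043 to 2157 CPM. Brown adipocyte markers were lower for 5 of the 6 tested (8 listed), with sums of 8886 to 10554 against 3721 to 6764 CPM.

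White adipocyte markers rose for 4 of 5, with sums of 79.8 to 296.5 CPM in WT and 1092 to 2297 CPM in db/db. Pericyte and smooth muscle markers were higher for 3 of the 4 tested (6 listed), with sums of 185.6 to 224.9 against 314.0 to 418.8 CPM. Endothelial markers were lower for 2 of 6, with sums of 264.9 to 322.5 against 202.7 to 235.9 CPM. Adipocyte markers shared by both fat types were higher for 2 of 6. None of the 5 T and B cell markers passed the filter on low counts, their sums were 1.21 to 5.49 CPM in WT and 0.954 to 10.8 CPM in db/db, and Cd79a was at 0 everywhere. The part of these cell types in the changes of Bmp4, Inhbb and Fst was not tested. For skeletal muscle only, a fit with a covariate is given next, which cannot settle its part.

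With the skeletal muscle score of each library as a covariate, the call of Bmp4 was lost, while the log2 difference of Inhbb was 2.92 and that of Fst -2.12 (edgeR adjusted p = 0.0339 and 0.00541). The score did not overlap between genotypes, so that muscle content and genotype cannot be told apart fully in this fit. Without WT replicate 3, the library with the highest Fst, and db/db replicate 1, the library with the highest muscle sum, the 3 differences were 2.19, 2.87 and -1.54, and each passed (edgeR adjusted p = 0.000177, 0.00127 and 0.00068).

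**Figure D3:**
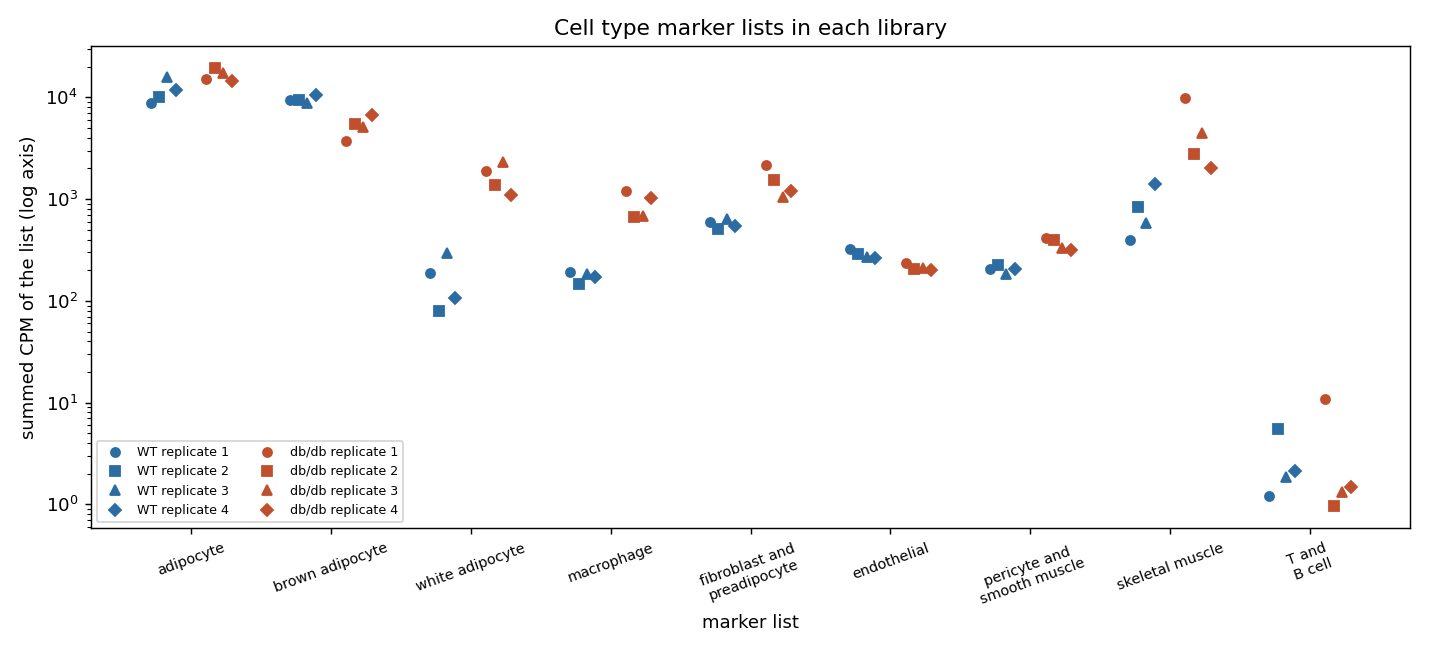
Summed CPM of each cell type marker list (log axis) in the 4 WT (blue) and 4 db/db (orange) libraries, with symbols for replicate numbers. Skeletal muscle, macrophage, white adipocyte and fibroblast sums were higher in every db/db library, brown adipocyte and endothelial sums were lower, and db/db replicate 1 held the highest muscle sum.

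Around these 10 genes, 78 further genes of the pathway were listed by role, of which 67 had at least 1 count and 43 were tested. Of the 43, 13 were higher and 4 lower in db/db and 26 did not pass, so that 39.5% were called against 27.7% of all genes tested. Their median log2 fold change was 0.34. A few genes stood in 2 or 3 lists and were counted once in these totals.

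Of 23 other ligands, 8 had 0 counts everywhere and 4 were tested, with 2 higher and 0 lower. That is 50% called, against 27.7% of all genes tested. Bmp3, a BMP family member known to oppose BMP2, rose most. Its counts were 4, 2, 5 and 1 in WT and 83, 74, 78 and 58 in db/db. The means were 1.19 ± 0.674 and 26.2 ± 5.78 CPM (SD, n = 4 each), a log2 difference of 4.37 (SE 0.36; edgeR adjusted p = 1.30e-07). With the muscle score as covariate it was 4.30 and still called (edgeR adjusted p = 6.90e-05). Bmp2, a ligand of Bmpr1a, was at 1.21, 1.69, 4.88 and 0 CPM in WT and at 4.81, 10.8, 8.42 and 4.84 CPM in db/db, with a slight overlap. Its log2 difference was 1.82 (SE 0.58; edgeR adjusted p = 0.0252), and the call was lost without WT replicate 1, 2 or 4 or db/db replicate 2 or 3. With 1 library left out its log2 difference lay between 1.42 and 2.81, the highest without WT replicate 3, and with the muscle score as covariate it was 2.64 (edgeR adjusted p = 0.155). Bmp7, known for promoting brown adipocyte formation, had 0 to 2 counts per library. Tgfb1 was below the filter, with 7, 4, 5 and 2 counts in WT and 19, 27, 3 and 13 in db/db (exact two-sided permutation test, p = 0.114).

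Among 14 other receptors and co-receptors, 10 were tested, with 1 higher and 1 lower, or 20% called against 27.7% of all genes tested. Acvr1, a type I receptor for BMPs, had a log2 difference of 0.34 (95% interval -0.40 to 1.08), and Acvr2b, the sister of Acvr2a, one of -0.35 (95% interval -1.32 to 0.61). Neither passed, with edgeR adjusted p of 0.513 and 0.615. Acvr1b (ALK4), the type I receptor of activin A, was below the filter with 2, 6, 2 and 6 counts in WT and 17, 25, 8 and 7 in db/db, values that did not overlap (exact two-sided permutation test, p = 0.0286). The called genes were both BMP co-receptors. Hfe2, hemojuvelin, which is known from skeletal muscle and liver, had a log2 difference of 2.22 (SE 0.50; edgeR adjusted p = 0.00298), and with the muscle score as covariate its difference was 0.046 (edgeR adjusted p = 0.979). Rgma had one of -0.55 (SE 0.19; edgeR adjusted p = 0.0422) and kept the call under 10 of 19 alternatives.

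Of 14 other antagonists, 8 were tested, and 6 were higher and 0 lower in db/db, beside 15.8% of all tested genes called higher and 11.9% called lower. With the muscle score as covariate, 0 of these 6 were called. Fstl3, a follistatin relative that also binds activins, had 3, 12, 8 and 1 counts in WT and 73, 54, 21 and 27 in db/db. Its log2 difference was 2.58 (SE 0.47; edgeR adjusted p = 0.000492), with Prss57 overlapping it on the opposite strand. With 1 library left out the difference lay between 2.24 and 3.17, the highest without WT replicate 2, and was called each time. Fstl1, a more distant relative, went from 15.4 ± 3.40 to 55.1 ± 34.7 CPM (SD, n = 4 each), with db/db replicate 1 at 106.8 CPM. Its log2 difference was 1.85 (SE 0.33; edgeR adjusted p = 0.000371). Nbl1, a secreted BMP antagonist, was higher by 1.79 (SE 0.45; edgeR adjusted p = 0.00592).

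With the muscle covariate the log2 differences of Fstl3, Fstl1 and Nbl1 were 1.91, 0.53 and 0.80 (edgeR adjusted p = 0.168, 0.564 and 0.621). The remaining called antagonists were Crim1, Htra1 and Chrdl1, at 1.32, 1.57 and 1.58 on the log2 scale without that covariate. Twsg1 and Bmper did not pass, with edgeR adjusted p of 0.0723 and 0.0635. Nog, the antagonist noggin, had 0 to 4 counts per library, and Grem1, gremlin 1, had 0 throughout.

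**Figure D4:**
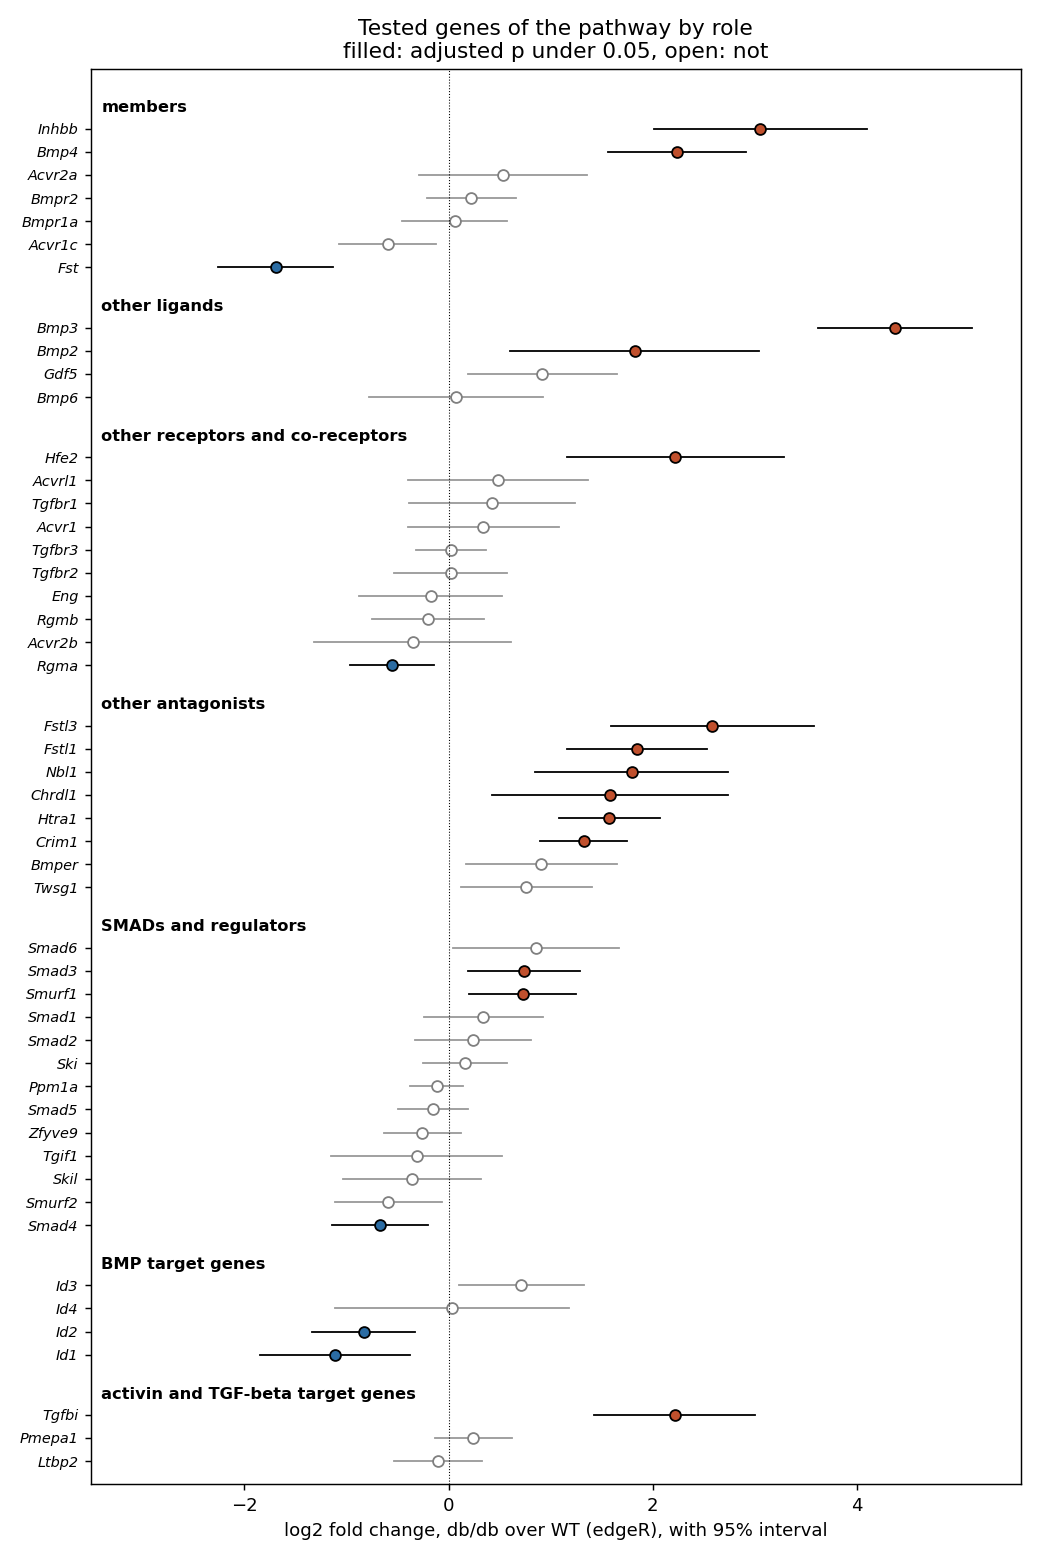
Log2 fold change (db/db over WT, horizontal axis) with its 95% interval for the 7 tested genes of the 10 (top) and the pathway genes reported on outside them, by role, filled where the edgeR adjusted p was under 0.05; a gene in more than 1 list is drawn once. Fst lies left of 0, while Fstl3, Fstl1, Nbl1, Chrdl1, Htra1 and Crim1 lie right of it.

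Ratios within a library do not depend on the scaling between libraries, and were chosen after the values were seen. Fst counts per Fstl3 count were 28.7, 18.5, 36.8 and 182 in WT and 1.22, 1.76, 2.05 and 2.07 in db/db. The ratio of 182 rests on a single Fstl3 count in WT replicate 4. Fst counts per Bmp4 count were 10.8, 13.1, 15.5 and 22.8 in WT and 0.748, 1.40, 0.741 and 1.27 in db/db. Summed over the 4 libraries of a genotype, 784 Fst counts stood against 11 Inhbb counts in WT, a ratio of 71.3, and 283 against 110 in db/db, a ratio of 2.57. In each of the 3 cases the balance of ligand or relative to Fst was higher in db/db, as the differences of the single genes imply. Because reads were not scaled by transcript length, a ratio has no meaning as a molar amount, only as a change between libraries.

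**Figure D5:**
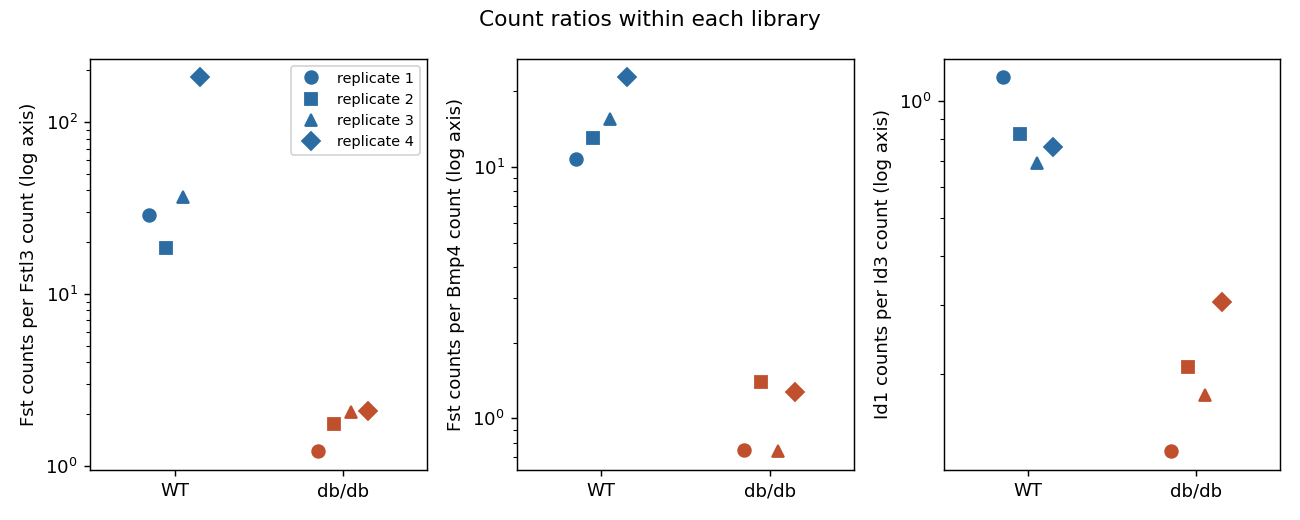
Counts of Fst per Fstl3 count, of Fst per Bmp4 count and of Id1 per Id3 count within each library (log axes) for the 4 WT and 4 db/db libraries, with symbols for replicate numbers. In all 3 panels each db/db library lies under each WT library.

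Of 15 SMADs and their regulators, 13 were tested, with 2 higher and 1 lower, or 23.1% called against 27.7% of all genes tested. Smad1 and Smad5, which carry BMP signals, had log2 differences of 0.34 (95% interval -0.24 to 0.92) and -0.15 (95% interval -0.50 to 0.19), with edgeR adjusted p of 0.396 and 0.526. Smad3, which carries activin signals, was higher by 0.74 (SE 0.26; edgeR adjusted p = 0.0420), and so was Smurf1, a ubiquitin ligase that marks BMP SMADs for breakdown, by 0.72 (SE 0.25; edgeR adjusted p = 0.0360). Smad4, the shared SMAD, was lower, with a log2 difference of -0.67 (SE 0.22; edgeR adjusted p = 0.0329). These calls were near the threshold, and Smad3, Smurf1 and Smad4 kept them under 10, 9 and 13 of 19 alternatives.

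Of 10 BMP target genes, 5 were tested, and 2 were lower and 0 higher. Of all tested genes, 11.9% were called lower and 15.8% higher. The 3 targets that did not pass were Id3, Id4 and Smad6. Id4 and Smad6 had log2 differences of 0.03 and 0.86 (edgeR adjusted p = 0.972 and 0.107). Id1 and Id2 encode inhibitors of basic helix-loop-helix factors that BMPs induce. Id1 was at 49.8, 78.5, 102.6 and 98.1 CPM in WT and at 15.6, 40.4, 20.4 and 75.9 CPM in db/db. Only db/db replicate 4 reached the WT range. Its log2 difference was -1.11 (SE 0.35; edgeR adjusted p = 0.0241), and DESeq2 did not call it (adjusted p = 0.129). With the muscle score as covariate the Id1 difference was -0.34 (edgeR adjusted p = 0.773), and the call was also lost without WT replicate 3, WT replicate 4 or db/db replicate 3 (edgeR adjusted p = 0.0664, 0.0653 and 0.0758). Id2 was lower as well, with a log2 difference of -0.83 (SE 0.24; edgeR adjusted p = 0.0142), and was at -1.24 with the muscle covariate, where it was not called (edgeR adjusted p = 0.0816). Id3, of the same family, had means of 103.9 ± 46.0 and 170.4 ± 62.9 CPM (SD, n = 4 each) and a log2 difference of 0.71 that did not pass (edgeR adjusted p = 0.0766). Id3 was called higher under 4 of 19 alternatives, among them without WT replicate 3 (edgeR adjusted p = 0.0383) and without db/db replicate 1 (0.0360). Without both of these libraries the Id3 difference was 1.06 (edgeR adjusted p = 0.0115) and that of Id1 was -0.72, not called (edgeR adjusted p = 0.115).

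Id1 counts per Id3 count were 1.15, 0.823, 0.691 and 0.762 in WT and 0.127, 0.208, 0.176 and 0.305 in db/db. The ratio was lower in every db/db library than in any WT library, whatever the scaling between libraries. This pair was chosen after its values were seen, and the levels of each gene alone overlapped between genotypes. How many other gene pairs separate in this way was not examined.

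Of 8 activin and TGF-beta target genes, 6 were tested, and 2 were higher and 0 lower. Those called made 33.3% of the tested, against 27.7% of all genes tested. The 4 that did not pass were Pmepa1, Skil, Tgif1 and Ltbp2. Their log2 differences were 0.24, -0.36, -0.31 and -0.10 (edgeR adjusted p = 0.346, 0.437, 0.608 and 0.759). Tgfbi, a matrix protein induced by TGF-beta, was higher by 2.21 (SE 0.37; edgeR adjusted p = 0.00025), and by 1.40 with the muscle score as covariate, where it was not called (edgeR adjusted p = 0.196).

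For the 3 genes of the 10 with a mean of at least 20 CPM, the genes with the most similar profile were looked for among 4531 tested genes of at least that level, by the root mean square distance of log2 CPM over the 8 libraries after centring on the WT mean. Closest to Fst were Aacs at 0.361, Ranbp9 at 0.382 and Slc12a2 at 0.388. Closest to Acvr1c were Nfatc3 at 0.192, Tmed5 at 0.226 and Tnks2 at 0.230. Closest to Bmpr2 were Stat5b at 0.145, Ano10 at 0.164 and Eps15 at 0.168. The distances are descriptions over libraries that share depth and tissue composition.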

How the data were processed

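The authors deposited raw counts per Ensembl gene from single-end mRNA libraries made by a commercial service. The study's methods describe trimming with bbduk, alignment to mm10 with STAR and counting with HTSeq-count, while the submitters' processing notes name Trimmomatic, HISAT2 and DESeq2. Which was used, how multi-mapping reads were treated and whether PCR copies were collapsed is not given in the sources used here. The authors also deposited log2 normalised values and a sample sheet, not used here.

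Genotype and replicate number were taken from the sample titles. Genes were matched by identifier to GENCODE M21 (mm10). Genes were filtered by filterByExpr (minimum count 10, minimum total 15), scaled by TMM and compared between genotypes, without other covariates, by quasi-likelihood fits in edgeR 4.0.16 (R 4.3.3), with Benjamini-Hochberg adjustment over 9264 genes and a threshold of 0.05. The study used DESeq2, run here as an alternative (1.42.0), as was limma-voom (limma 3.58.1). Standard errors were derived from the F statistic. CPM are counts over the TMM-scaled library size, taken over the tested genes. For genes below the filter, log2 CPM (prior count 2) were compared by exact two-sided permutation.

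In each pathway list, up to 3 called genes with the largest change in each direction were named, besides direct partners of the 10 genes. A called gene of the activin and TGF-beta target list is counted but not reported or drawn here. Crim1, Htra1, Chrdl1, Twsg1, Bmper, Id4, Smad6, Pmepa1, Skil, Tgif1 and Ltbp2 were named after their values were seen. The 10 genes, the lists and the marker genes were chosen with earlier results of these data known. On data simulated from these libraries, edgeR recovered 190 of 190 genes changed by 2 on the log2 scale, with 7 false calls among 9385 genes. The simulation gave every gene the same fixed dispersion and changed only genes with a mean of at least 10 counts. It therefore says little about genes with fewer counts or a wider spread between animals. The depth limit of 3 counts covers counting error only.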

Additional observations from a re-analysis of the deposited data

Results flagged for a closer look

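In groups of 4 samples, a value far from the other 3 was looked for in 84 sets (Dixon's test at 95%) and found in 8, where chance gives about 4.2. WT replicate 3 had 122.9 CPM of Acvr1c against 61.6 to 70.5 in the other WT libraries. In db/db, Fstl1 was at 106.8 CPM in replicate 1 against 34.0 to 43.0, Smad1 at 22.2 CPM in replicate 3 against 10.8 to 12.6, and Acvr1 at 10.8 CPM in replicate 2 against 7.07 to 7.22. Nog was at 0.376 CPM in WT replicate 3 and Bmp7 at 0.809 CPM in WT replicate 1, with 0 in the other WT libraries. Both lie below the level of 3 counts. Any value above 0 is flagged when the rest of its set is 0, so the chance rate does not apply to them. The T and B cell marker sum of db/db replicate 1 was 10.8 CPM against 0.954 to 1.49. Mitochondrially encoded genes took 30.7% of the counts of db/db replicate 1 where the rest of db/db had 36.8% to 37.6%.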

How the results depend on the processing

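The number of called genes among the 10, 3 as reported, was 3 with DESeq2 and limma-voom, 1 of 4 tested when at least 10 counts were required in every sample, and 3 to 5 when 1 library was left out, with 5 of 8 tested without WT replicate 2. Of the 43 pathway genes tested outside the 10, 17 were called as reported, 10 of 26 tested with at least 10 counts in every sample, 2 with the skeletal muscle score as covariate, and 12 to 18 with 1 library left out. Over all genes the count fell from 2568 to 545 with the muscle covariate, whose values do not overlap between genotypes, and was 2236 to 2483 with 1 library left out. Without both WT replicate 3 and db/db replicate 1, chosen after seeing the data, 2105 genes, 3 of the 10 and 14 pathway genes were called. Among the genes whose fold change was followed through the alternatives, the 3 whose sign turned (Acvr2a, Bmpr1a and Acvr2b) were called under none. With the muscle covariate the log2 difference was -0.54 for Acvr2a, -0.34 for Bmpr1a and 0.31 for Acvr2b. With 1 library left out, Bmpr1a ranged from -0.13 to 0.17, and was below 0 without WT replicate 1 (-0.053) and without db/db replicate 1. Without both WT replicate 3 and db/db replicate 1, Bmpr1a was at -0.043 and Acvr2b at 0.069. The cause was not tested. Inhbb and Fst were called under every alternative that tested them, 18 and 19, and Bmp4 under 17 of 18. Gdf10 entered the test in 7 alternatives and passed in 2 of them, without WT replicate 2 (adjusted p = 0.0403) and without db/db replicate 2 (0.0169). No other scaling moved the median log2 fold change of all genes by more than 0.1.

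Replicate numbers occur in both genotypes but concern different animals, and deviations of same-numbered libraries correlated at 0.04, 0.05, -0.08 and -0.01, so the numbers do not pair the samples. With the replicate block, 2557 genes, 4 of the 10 (Acvr1c added, adjusted p = 0.0165) and 16 pathway genes were called. Low counts limit Inhba, Bmp8b and Gdf10 most, since 3 counts already amount to 0.902 to 1.33 CPM.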

Other observations

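Of the 78 pathway genes outside the 10, 35 were too low for the test across genes, 11 of them with 0 counts. A few of the 35 had levels in every db/db library above those in any WT library. They were singled out after their values were seen. Among all tested genes 28.1% did not overlap in either direction, and the share among genes below the filter was not taken. Tgfb3, a TGF-beta ligand, had 1, 2, 3 and 0 counts in WT and 35, 44, 18 and 7 in db/db. Gdf15, a stress-induced ligand, had 0, 2, 0 and 0 counts in WT and 9, 10, 5 and 17 in db/db. Ccn2, a matricellular target of TGF-beta, had 3, 4, 6 and 1 counts in WT and 12, 20, 18 and 9 in db/db. They were picked for this pattern, so no test is given. Antisense genes overlap exons of Tgfb3 and Ccn2.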
